A study of Mus musculus with 6 samples.

Results

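The 8 genes described here encode parts of the calcium cycle and the electrical machinery of heart muscle. They are Atp2a2, the calcium pump of the sarcoplasmic reticulum, Pln, phospholamban, an inhibitor of that pump, Ryr2, the release channel, Casq2, the calcium buffer inside the store, Slc8a1, the sodium-calcium exchanger, Cacna1c, the pore subunit of the L-type calcium channel, Hcn4, a pacemaker channel, and Gja1, the gap junction protein connexin 43. They were chosen by name, and each was read at every probe set that the annotation table of the array gave to that gene alone. This gave 24 of 45101 probe sets, for 7 of the 8 genes. Hcn4 was the gene with no such probe set and was not analysed here. In a heart muscle cell calcium enters through the L-type channel, triggers a larger release from the sarcoplasmic reticulum, and is then pumped back into that store or exchanged out of the cell for sodium. Pacemaker channels set the rhythm of this cycle, and gap junctions carry the impulse from cell to cell. The heart of the mouse embryo already beats at the stage examined.

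RNA came from whole FVB mouse embryos at 10.5 days of gestation, all of normal morphology. The diabetes-exposed embryos came from FVB dams treated at 7 to 9 weeks of age with streptozotocin, a toxin of insulin-producing cells, in 2 doses of 100 mg per kg body weight, and mated once blood glucose exceeded 250 mg per dl. The control embryos were of the same strain and age, from pregnancies without diabetes. Each group had 3 pools, each pool combined 3 embryos of different pregnancies, and each pool was read on 1 Affymetrix expression array, so that n = 3 pools per group throughout. The heart is a small part of a whole embryo, so fewer cells of a type and less RNA per cell cannot be told apart, nor can signal from heart and from other tissues that use the same gene.

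On these arrays a signal is an intensity in arbitrary units, and signals of different probe sets are not on 1 scale, so each probe set is compared between pools only. A probe set is called when its adjusted p in limma was under 0.05, after Benjamini-Hochberg adjustment for the 30025 probe sets tested on the array, and "rose" and "fell" are used of called values in diabetes-exposed relative to control pools. Of the 24 probe sets, 22 were bright enough to be tested. Of these 11 were called, or 5 that rose and 6 that fell, while 36.2% of all tested probe sets were called, 14.4% as higher and 21.8% as lower. The groups did not overlap in 13 of the 22, as they did not in 49.9% of all tested probe sets.

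The calls lay in 3 genes. Atp2a2 fell at 5 of its 6 probe sets, 1 of them with exposed signals too low to fix a fold change, Pln rose at 2 of 3, and Gja1 rose at 3 and fell at 1 of 6. Ryr2, Casq2, Slc8a1 and Cacna1c had no called probe set. At the brightest probe set of each gene, 2 of the 7 genes rose (Pln and Gja1) and 1 fell (Atp2a2), and of 13956 genes read in this way 17.6% rose and 19.9% fell. The split over all genes depended on scaling: 2461 rose and 2779 fell as deposited, 4066 and 1218 after centring arrays on their medians, 3359 and 2145 after quantile and 2829 and 2369 after cyclic loess normalization. Over all genes the median log2 fold change was -0.00025 as deposited and 0.30, 0.14 and 0.08 under those scalings, and that of the 7 genes was 0.22 as deposited and 0.51, 0.48 and 0.37 under them. With the array control ratio described next as a covariate, the median of the 7 turned to -0.19, and that of all genes was 0.03.

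**Figure D1:**
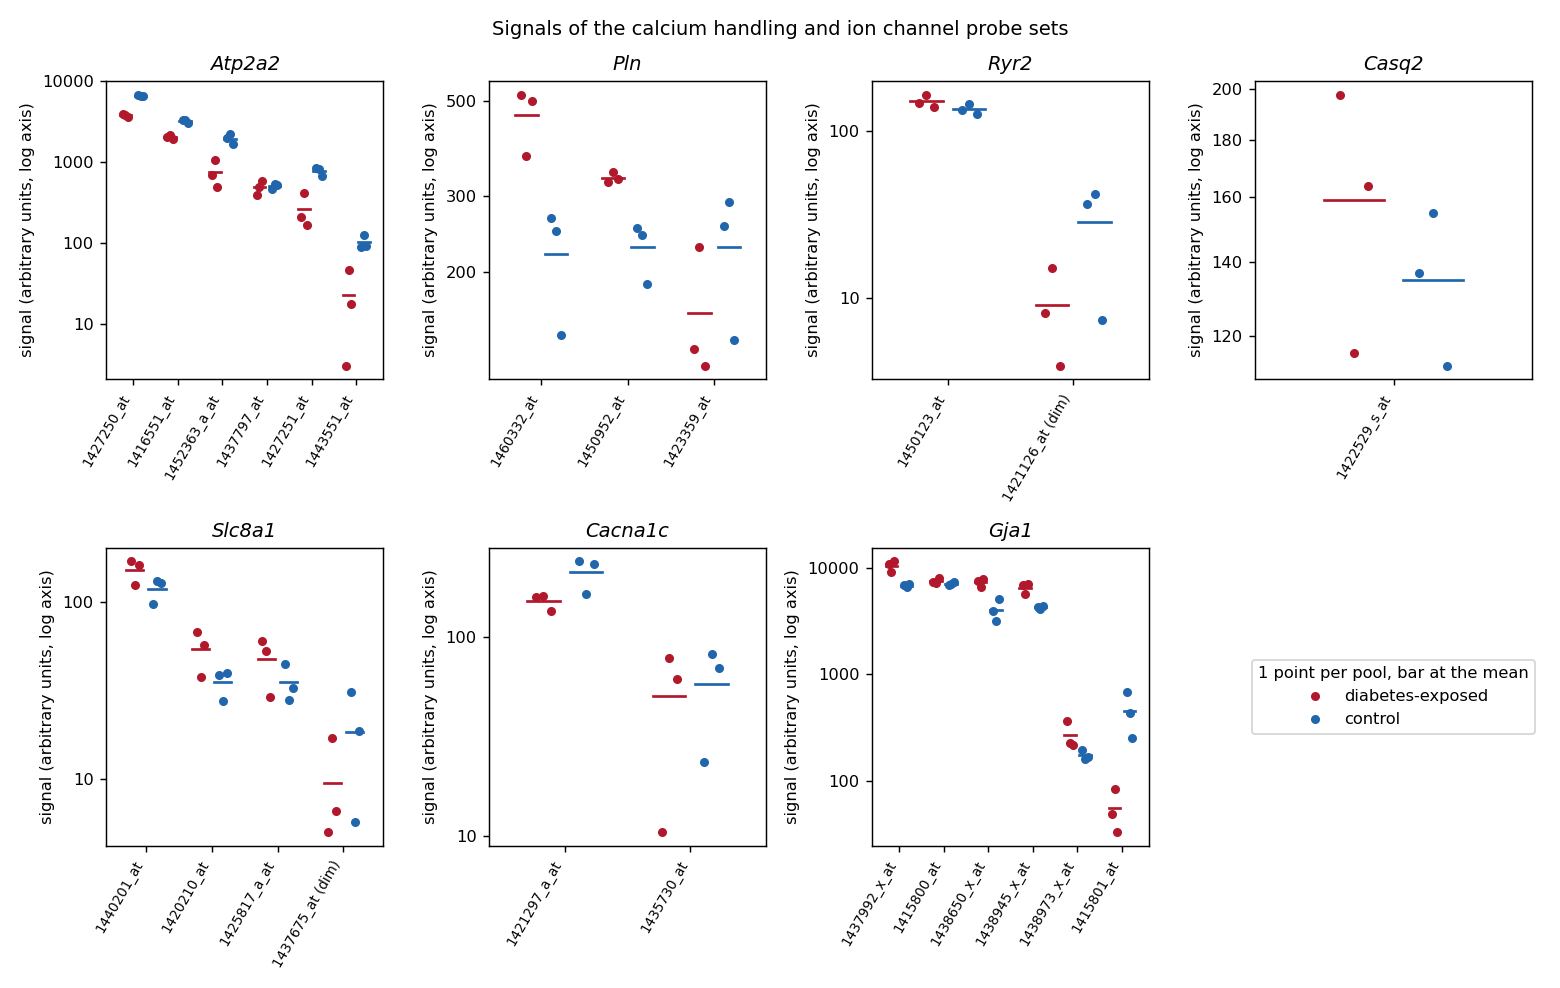
Signal in arbitrary units (vertical log axis) of the 24 probe sets, each point 1 pool and each bar a group mean, with the 2 probe sets too dim to be tested marked. At the brightest probe set of Atp2a2 the diabetes-exposed pools lay between 3659 and 3940.3 and the control pools between 6564 and 6850.

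Array controls also differed between the groups. Poly-A spikes are foreign transcripts added to the RNA before labelling and read near the 3' end and in the middle, and their 3' to middle ratio was 6.56, 3.47 and 7.00 on diabetes-exposed arrays, against 2.10, 2.07 and 2.52 on control arrays. For beta-actin, 3' over 5' signal was 10.1, 3.09 and 10.3 on diabetes-exposed arrays, against 1.71, 1.76 and 2.19 on control arrays. For Gapdh it was 1.84, 0.972 and 1.72 on diabetes-exposed arrays, against 0.824, 0.832 and 0.921 on control arrays. The groups did not overlap in any of the 3 ratios, and diabetes-exposed replicate 2 lay nearest to the controls in each. Each ratio had a two-sided exact permutation p of 0.1, below which a design of this size cannot go. Since this ratio moved with the groups, values from a fit with the spike ratio as a covariate, called the spike-adjusted fit, are set beside those of the tested member probe sets and of the further channel genes that were called. In that fit 11 of the 13956 genes were called as higher and 241 as lower. The spike ratio did not overlap between the groups, so that fit cannot fully separate group from ratio. Lost calls and turned signs in it are therefore given as values only, with no conclusion drawn for a gene.

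Promoter sequence is shown for Pln and Gja1, the members that rose at their brightest probe set. The windows hold 30 bases each, 5' to 3' on the strand of the gene, taken from RefSeq promoters of build GRCm38.p6 that run from 250 bases before to 50 after the start site. Capitals mark GATAA on either strand, the core letters bound by GATA factors such as Gata4 of the heart, or TGANTCA, the letters bound by AP-1. The distance given to the start site is that of the first capital letter, not of the window.
Pln, chr10:53337491-53337520, plus strand, 183 bases before the start site: ctttattctcagTTATCtgttatacacatt
Pln, chr10:53337593-53337622, plus strand, 81 bases before the start site: aggtttggttgtGATAAgaacatggctaac
Gja1, chr10:56377153-56377182, plus strand, 135 bases before the start site: gaaactacaactTTATCttgaccaggttgc
Gja1, chr10:56377270-56377299, plus strand, 19 bases before the start site: ctccttccagtTGAGTCAgtggcttgaaac
GATAA occurred in 25.4% of 32851 promoters of this length and TGANTCA in 7.81%, searched on both strands, so a match describes letters and not a bound site. The promoter table matched 7 of the 8 genes, all but Atp2a2. Slc8a1 held 2 matches to GATAA, and Ryr2, Casq2, Cacna1c and Hcn4 held 0. CATTCC, the letters bound by TEAD factors, occurred in 14.7% of promoters and in 0 of those of the 7 genes.

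Atp2a2, which refills the calcium store after each beat, was lower in diabetes-exposed embryos. At its brightest probe set, 1427250_at, the signal was 3940.3, 3852 and 3659 in the diabetes-exposed pools, against 6850, 6564 and 6564 in the control pools. Each exposed pool was lower than each control pool, and pools of 1 group lay close together. The means were 3817 ± 144 in exposed and 6659 ± 165 in control pools (SD, n = 3 each), a log2 fold change of -0.80 ± 0.074 (SE, limma, adjusted p = 3.2e-04). The spike-adjusted fit gave -0.76 ± 0.12 (adjusted p = 0.035), and this was the only member probe set called in it. With diabetes-exposed replicates 1 and 3 left out, the arrays with the highest spike ratios, it stood at -0.79 (adjusted p = 0.0031), where the single remaining exposed pool is assumed to vary like the controls.

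The second brightest, 1416551_at, had a signal of 2050, 2149 and 1918 in the exposed pools, against 3285, 3368 and 3045 in the control pools. The groups again lay apart, by a log2 fold change of -0.67 ± 0.086 (SE, limma, adjusted p = 0.0011), which was -0.47 in the spike-adjusted fit (adjusted p = 0.17) and lost its call after median centring (0.071). At 1452363_a_at the signal was 695.2, 1081 and 490.4 in the exposed pools, against 1984, 2216 and 1668 in the control pools, a log2 fold change of -1.44 ± 0.25 (adjusted p = 0.0032). At 1427251_at it was 210.3, 415.7 and 169.5 in the exposed pools, against 858, 817.8 and 682.2 in the control pools, a log2 fold change of -1.67 ± 0.29 (adjusted p = 0.0032). In both of these, replicate 2 was the highest exposed pool, and the spike-adjusted values were -0.19 and -0.15 (adjusted p = 0.79 and 0.84).

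The dim probe set 1443551_at had 3.1, 47.5 and 18.1 in the exposed pools and 91.3, 125.7 and 92.2 in the control pools. Its exposed pools spread widely below the controls. Their arithmetic mean of 22.9 lay under 26.7, the lowest geometric mean over all 6 arrays of a tested probe set, so that it was tested through its control signals. It was called (limma, adjusted p = 0.031), but the size of the change is not fixed: the fitted log2 fold change was -2.88 as deposited, -1.37 with a pseudocount of 32, -1.80 without diabetes-exposed replicate 1 and 0.24 in the spike-adjusted fit (adjusted p = 0.96). It was not called when control replicate 1, 2 or 3 was left out (adjusted p = 0.079, 0.099 and 0.067) or when diabetes-exposed replicate 3 was (0.060). The probe set of Atp2a2 that was not called, 1437797_at, had 398.3, 499.5 and 593.6 in the exposed pools and 468.7, 541.4 and 523.5 in the control pools. There the groups overlapped, and the log2 fold change was -0.06 ± 0.16 (adjusted p = 0.81), which turned to between 0.12 and 0.24 under the 3 other scalings and was -0.08 in the spike-adjusted fit (adjusted p = 0.95).

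**Figure D2:**
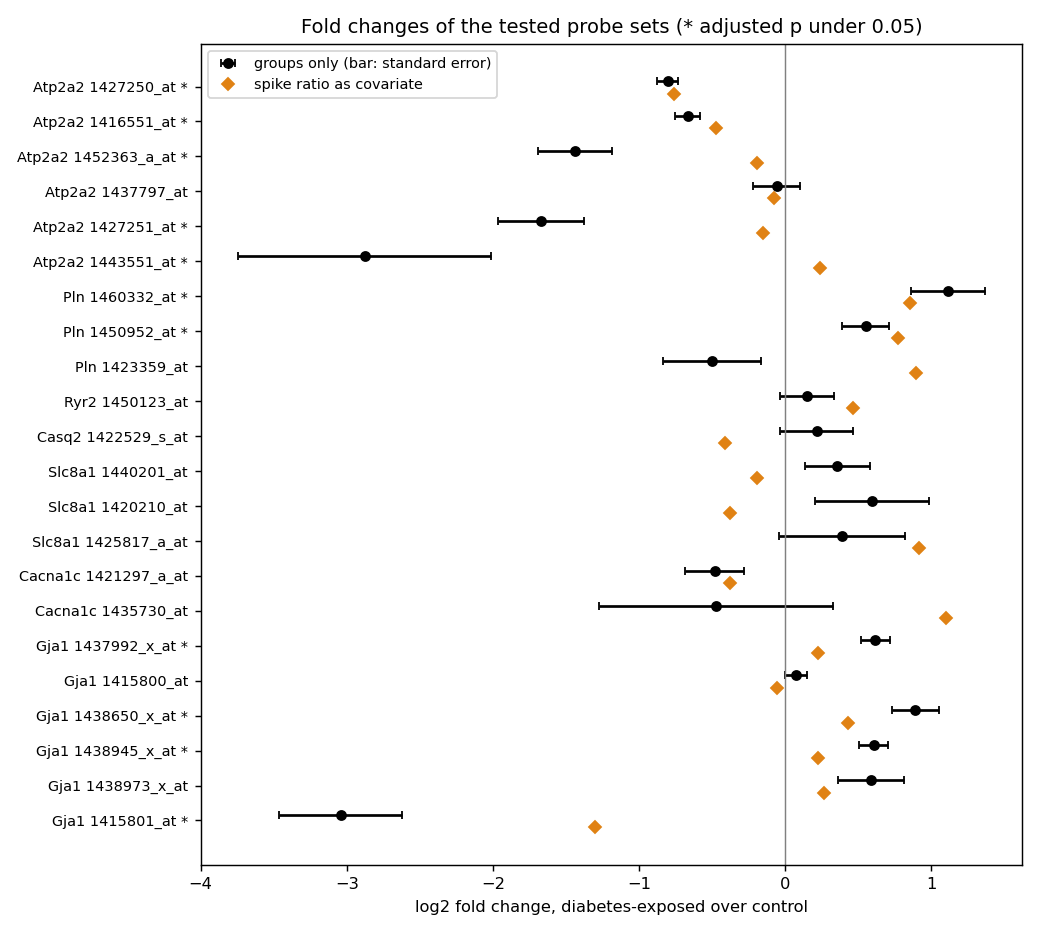
Log2 fold change (horizontal axis, diabetes-exposed over control) of the 22 tested probe sets, from the groups alone (circles, with standard error) and from the spike-adjusted fit (diamonds). Atp2a2 1427250_at stood at -0.80 and -0.76 in these fits, and Gja1 1415801_at at -3.04 and -1.30.

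Pln, which restrains the pump until it is phosphorylated, had 3 probe sets that share 1 source cDNA in the annotation and did not move alike. At the brightest, 1460332_at, the signal was 517, 371 and 500.6 in the diabetes-exposed pools, against 266.4, 249.1 and 142 in the control pools. All exposed pools were above all control pools, at 463 ± 80.0 in exposed and 219 ± 67.4 in control pools (SD, n = 3 each). This was a log2 fold change of 1.12 ± 0.25 (SE, limma, adjusted p = 0.0095). The spike-adjusted value was 0.86 ± 0.53 (adjusted p = 0.51).

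At 1450952_at the signal of Pln was 324.2, 341.1 and 328.5 in the exposed pools, against 253.2, 243.9 and 186.6 in the control pools. The exposed pools lay close together and above every control pool, with a log2 fold change of 0.55 ± 0.16 (SE, limma, adjusted p = 0.027). This call ended without diabetes-exposed replicate 1 (adjusted p = 0.068) or 3 (0.071), and without control replicate 2 (0.053) or 3 (0.060). At 1423359_at the signal was 132.2, 228.1 and 120.7 in the exposed pools and 255.7, 289.8 and 138.6 in the control pools. The groups overlapped there, with a log2 fold change of -0.50 ± 0.33 (adjusted p = 0.28). In the spike-adjusted fit these probe sets stood at 0.77 and 0.90 (adjusted p = 0.33 and 0.44). Over the 3 probe sets together Pln had a mean log2 fold change of 0.39 (adjusted p = 0.17). With diabetes-exposed replicates 1 and 3 left out, 1460332_at and 1450952_at stood at 0.81 and 0.59 (adjusted p = 0.19 and 0.15).

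Ryr2, through which calcium leaves the store at each beat, was tested at 1450123_at. The signal was 146.9, 165.2 and 138.5 in the exposed pools and 132.9, 145.6 and 126.8 in the control pools. The groups overlapped, with a log2 fold change of 0.15 ± 0.18 (SE, limma, adjusted p = 0.57), or 0.47 in the spike-adjusted fit (adjusted p = 0.65). The other probe set of Ryr2, too dim to be tested, lay between 3.9 and 15.1 in the exposed and between 7.3 and 41.7 in the control pools. Casq2, which holds calcium beside the release channel, had 197.9, 115.8 and 163.8 in the exposed pools and 136.8, 154.9 and 112.9 in the control pools at 1422529_s_at. Its exposed pools reached both into and above the range of the controls, with a log2 fold change of 0.22 ± 0.25 (adjusted p = 0.54), and -0.41 in the spike-adjusted fit (adjusted p = 0.77).

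Slc8a1, which moves calcium out of the cell after each beat, was brightest at 1440201_at, with 170, 125 and 161.5 in the exposed pools and 97.4, 130.7 and 128.1 in the control pools. Replicate 2 was the exposed pool that lay among the controls, and the log2 fold change was 0.36 ± 0.22 (SE, limma, adjusted p = 0.25), or -0.19 in the spike-adjusted fit (adjusted p = 0.89). The dimmer 1420210_at, from 37.6 to 67.8 in the exposed and from 27.5 to 39.5 in the control pools, stood at 0.60 ± 0.39 (adjusted p = 0.27), or -0.37 spike-adjusted (0.89). At 1425817_a_at, from 29.1 to 60.5 in the exposed and from 28 to 44.9 in the control pools, the value was 0.39 ± 0.43 (adjusted p = 0.52), or 0.91 spike-adjusted (0.74). All 3 overlapped between groups, and the fourth, at 5 to 17 in the exposed and 5.7 to 31 in the control pools, was too dim to be tested.

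Cacna1c, whose channel lets in the calcium that starts each contraction, was brightest at 1421297_a_at, with 158, 160.3 and 134.3 in the exposed pools and 240.1, 165.3 and 233.2 in the control pools. The exposed pools were all lower, with control replicate 2 close above the highest of them. The log2 fold change was -0.48 ± 0.20 (SE, limma, adjusted p = 0.098), and it lay between -0.25 and -0.15 under the 3 other scalings and at -0.38 in the spike-adjusted fit (adjusted p = 0.76). The dim 1435730_at, from 10.4 to 78.5 in the exposed and from 23.6 to 81.8 in the control pools, gave -0.47 ± 0.80 (adjusted p = 0.69), or 1.10 spike-adjusted (0.82).

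Gja1, which joins heart muscle cells and many other cells of the embryo, had 6 probe sets with opposite results. At the brightest, 1437992_x_at, the signal was 10890.5, 9153 and 11589 in the diabetes-exposed pools, against 6874, 6584 and 7059 in the control pools. The groups lay well apart, with a log2 fold change of 0.62 ± 0.099 (SE, limma, adjusted p = 0.0022). At 1438945_x_at the signal was 6874, 5692 and 7040 in the exposed pools, against 4316, 4112 and 4395 in the control pools, a log2 fold change of 0.61 ± 0.097 (adjusted p = 0.0023). At 1438650_x_at it was 7593, 6689 and 7946 in the exposed pools, against 3924, 3163 and 5091 in the control pools, a log2 fold change of 0.89 ± 0.16 (adjusted p = 0.0035). In these 3, replicate 2 was the lowest exposed pool and still above every control pool.

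The dimmer 1438973_x_at of Gja1 had 363.6, 223.8 and 217.6 in the exposed pools and 194.9, 159.9 and 167.9 in the control pools. It did not overlap between groups and stood at 0.59 ± 0.23 (SE, limma, adjusted p = 0.074), a value that passed the threshold under the 3 other scalings (adjusted p = 0.0081, 0.014 and 0.021) and with a replicate block (0.040). The ending _x_at, shared by these 4 probe sets, marks probes that may also bind other transcripts. In the spike-adjusted fit they lay between 0.22 and 0.43, with none called.

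The remaining probe sets of Gja1 share 1 source cDNA and carry no such ending. At 1415800_at the signal was 7330, 7276 and 8032 in the exposed pools and 6922, 7105 and 7431 in the control pools. The groups overlapped, and the log2 fold change was 0.08 ± 0.077 (SE, limma, adjusted p = 0.48), which turned to -0.22 under quantile (adjusted p = 0.014) and -0.17 under cyclic loess normalization (adjusted p = 0.056), and to -0.06 in the spike-adjusted fit (adjusted p = 0.88). At 1415801_at the signal was 48.2, 84.1 and 32.6 in the exposed pools, against 675.7, 430.6 and 254 in the control pools. Every exposed pool was far below every control pool, at 55.0 ± 26.4 in exposed and 453 ± 212 in control pools (SD, n = 3 each). The log2 fold change was -3.04 ± 0.42 (adjusted p = 0.0013), and -1.30 ± 0.62 in the spike-adjusted fit (adjusted p = 0.38). The mean over all 6 probe sets of Gja1 gave -0.04 (adjusted p = 0.74).

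**Figure D3:**
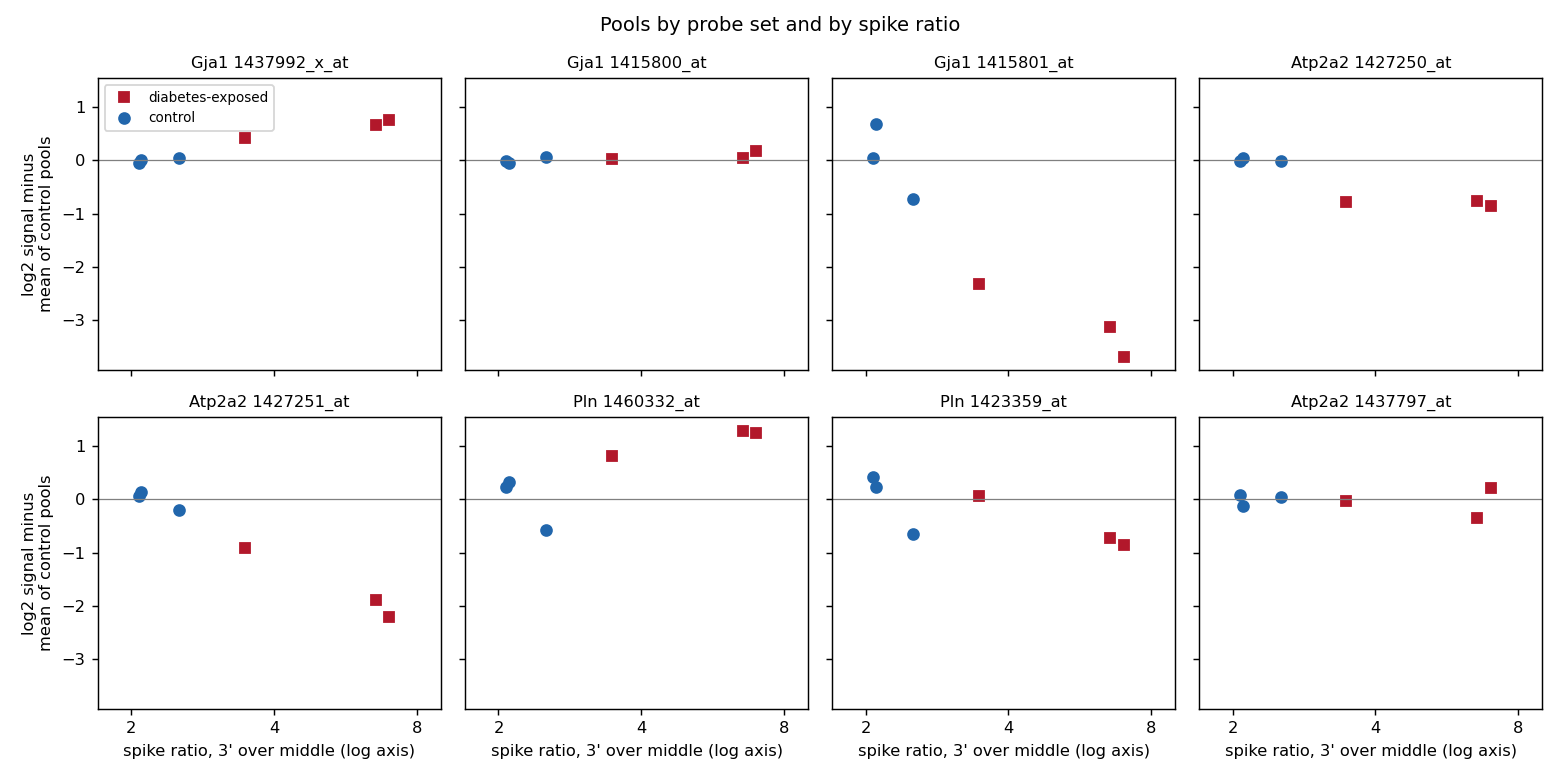
Log2 signal of each pool minus the mean of the control pools (vertical axis) against the spike ratio of its array (3' over middle, horizontal log axis) for 8 probe sets of Gja1, Atp2a2 and Pln. At Gja1 1415801_at and Atp2a2 1427251_at diabetes-exposed replicate 2, with a spike ratio of 3.47, lay between the controls and the other exposed pools, and at Atp2a2 1427250_at the 3 exposed pools lay close together.

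Markers of cardiomyocytes, the cells in which most of these genes work together, were higher in diabetes-exposed embryos. Of 22 listed markers, all tested, 18 rose and 1 fell (Hand2, not called after median centring, adjusted p = 0.15), the median log2 fold change was 0.69, and no signal was at 0. Their summed signal was 59890.5 to 64033 in the exposed pools and 32188 to 39674 in the control pools. Myl7, the atrial myosin light chain, rose by 1.16 on the log2 scale, Tnnt2, cardiac troponin T, by 0.70, and Nppa, atrial natriuretic peptide, by 0.60 (limma, adjusted p = 2.7e-04, 0.0013 and 0.032), and the call of Nppa ended without control replicate 3 (0.052) or diabetes-exposed replicate 1 (0.11). Actc1, cardiac actin, rose by 0.50 (adjusted p = 0.0033), a call that ended under quantile and cyclic loess normalization (adjusted p = 0.17 and 0.24). In the spike-adjusted fit 3 of the 22 were called, with a median of 0.87. At their brightest probe sets Pln and Gja1 moved in the direction of these markers and Atp2a2 against it. Averaged over its tested probe sets, Pln stood at 0.39, Gja1 at -0.04 and Atp2a2 at -1.25 (limma, adjusted p = 0.17, 0.74 and 0.0021). The part of cardiomyocyte numbers in these values was not tested.

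Markers of other cell types were read in the same way, where of all 13956 genes 17.6% rose and 19.9% fell. Of 8 neural progenitor markers 6 fell and 1 rose, with a summed signal of 12927 to 15081 in the exposed and 17379 to 18781 in the control pools. After median centring 4 of them fell and 2 rose, and under quantile and cyclic loess normalization 6 fell and 0 rose. Of 6 markers of yolk sac or hepatic endoderm 2 rose, Afp and Ttr, with sums of 6576 to 10218 in the exposed and 4287 to 4936 in the control pools. Under the 3 other scalings 3 to 4 of these rose. Of 6 tested skeletal myoblast markers 1 rose, Myf5, with sums of 1039.9 to 1283 in the exposed and 851.1 to 1004 in the control pools. Under the 3 other scalings 1 to 2 myoblast markers rose. Of 6 tested erythroid markers 0 were called by limma as deposited, while 3 fell under cyclic loess, 2 fell under quantile normalization and 1 rose after median centring, with sums of 75378 to 91981 in the exposed and 76746 to 82893 in the control pools. Of 2 tested markers of decidua and placenta 1 fell, Prl8a2, a hormone of the decidua, with sums of 66.1 to 96.2 in the exposed and 5711 to 6582 in the control pools. The part of these cells in the values of the 7 genes was not tested.

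Further components of the same machinery were read at their brightest probe set, and 53 of 67 listed genes could be tested. Of these 5 rose and 10 fell, while of all 13956 genes 17.6% rose and 19.9% fell. Their median log2 fold change was -0.06, and it turned to 0.24 after median centring and 0.05 after quantile normalization. In the spike-adjusted fit 0 of the 53 were called, with a median of -0.09, while of all 13956 genes 11 rose and 241 fell in it. Among 5 genes of calcium uptake into the store, S100a1, a calcium sensor that acts on pump and release channel, had 248.5, 270.2 and 251.2 in the exposed pools, against 202.7, 148.3 and 142.7 in the control pools. It rose without overlap, by 0.66 ± 0.18 on the log2 scale (SE, limma, adjusted p = 0.023), a call that ended without control replicate 2 (0.082) or 3 (0.059) and without diabetes-exposed replicate 1 (0.059) or 3 (0.060), and it stood at 0.88 in the spike-adjusted fit (0.34). The other of the 2 tested probe sets of S100a1 was not called. Atp2a1, the pump of fast skeletal muscle, had 78.3, 98.7 and 34 in the exposed pools, against 154.2, 180 and 140.1 in the control pools. It fell by 1.30 (adjusted p = 0.029), and stood at 0.05 in the spike-adjusted fit (adjusted p = 0.98). It was not called when control replicate 1, 2 or 3 was left out (adjusted p = 0.079, 0.096 and 0.051), when diabetes-exposed replicate 1 was (0.0501), or under quantile normalization (0.063).

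Among 13 genes of the release site 4 rose and 2 fell, beside 17.6% and 19.9% of all genes. Trdn, triadin, which anchors calsequestrin to the release channel, had 194.2, 101.9 and 128.5 in the exposed pools, against 57.3, 62.9 and 46.2 in the control pools. It rose by 1.31 ± 0.30 on the log2 scale (SE, limma, adjusted p = 0.010), and stood at 0.72 in the spike-adjusted fit (adjusted p = 0.66). Casq1, the calsequestrin of skeletal muscle, had 603.1, 616.9 and 573.5 in the exposed pools, against 360.2, 334.9 and 242.5 in the control pools. It rose by 0.96 ± 0.16 (adjusted p = 0.0029), with the exposed pools close together, and stood at 1.22 in the spike-adjusted fit (adjusted p = 0.13). Sri, sorcin, which binds the release channel, rose by 0.35 at its brightest probe set (adjusted p = 0.010, and 0.051 without control replicate 1), while 1 other of its 3 tested probe sets fell, and the brightest stood at 0.22 in the spike-adjusted fit (0.53). Fkbp1a, another protein of that channel, rose by 0.26 (adjusted p = 0.035) but stood at -0.06 under quantile and -0.02 under cyclic loess normalization. Its call ended without any 1 pool other than diabetes-exposed replicate 2 (adjusted p from 0.080 to 0.12), with a spike-adjusted value of 0.03 (0.94). Of its 4 tested probe sets 2 rose and 0 fell.

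Ryr1, the release channel of skeletal muscle, had 4.3, 33 and 15.2 in the exposed pools, against 118.2, 147.7 and 116.2 in the control pools. It fell (limma, adjusted p = 0.0064), but its arithmetic exposed mean of 17.5 lay under 26.7, the lowest geometric mean over all 6 arrays of a tested probe set. The size of the change is not fixed: the fitted log2 fold change was -3.29 as deposited, -1.72 with a pseudocount of 32 and -0.90 in the spike-adjusted fit (adjusted p = 0.79). Itpr3, a receptor of inositol trisphosphate, had 127.8, 114.4 and 138.1 in the exposed pools, against 334.7, 301.1 and 287.4 in the control pools. It fell by 1.28 ± 0.17 (adjusted p = 0.0010), and stood at -1.51 in the spike-adjusted fit (adjusted p = 0.086).

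The genes listed for calcium entry and exit act mostly at the cell surface, but the list also holds genes of internal membranes such as Slc8b1. Among its 15 tested genes 0 rose and 5 fell, beside 17.6% and 19.9% of all genes. Under the 3 other scalings 3 to 4 fell. The median was -0.78, and -0.06 in the spike-adjusted fit. Cacna1h, the pore of a T-type calcium channel, had 133.5, 135.1 and 118.2 in the exposed pools, against 356.6, 366.3 and 299.4 in the control pools. It fell by 1.40 ± 0.16 on the log2 scale (SE, limma, adjusted p = 7.5e-04), and stood at -1.16 in the spike-adjusted fit (adjusted p = 0.16). The other of the 2 tested probe sets of Cacna1h was not called. Cacna1g, another T-type pore, had 182.7, 176.4 and 151.7 in the exposed pools, against 347.4, 345.1 and 311.3 in the control pools. It fell by 0.98 ± 0.15 (adjusted p = 0.0020), and stood at -0.80 in the spike-adjusted fit (adjusted p = 0.29). In both genes exposed replicate 2 lay within or near the range of the other exposed pools. The auxiliary channel subunits Cacnb2 and Cacna2d2 fell by 0.87 and 0.99, and Slc8b1, the exchanger of mitochondria, fell by 1.12. Cacnb2 stood at 0.0067 in the spike-adjusted fit, Cacna2d2 at -1.31 and Slc8b1 at -0.11 (adjusted p = 0.997, 0.33 and 0.96). All 3 calls ended without control replicate 2 (adjusted p = 0.12, 0.084 and 0.087), and those of Cacnb2 and Slc8b1 also without control replicate 1 (0.079 and 0.070) and without diabetes-exposed replicate 1 (0.086 and 0.064) or 3 (0.091 and 0.061). The calls of Cacnb2 and Cacna2d2 ended after median centring (0.084 and 0.062) and quantile normalization (0.087 and 0.059) too, and that of Cacnb2 under cyclic loess (0.055). Whether the T-type pores and Cacna1c differed in response was not tested.

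Among 10 potassium channel genes 2 fell, beside 19.9% of all genes. Kcnh2, the pore of the rapid delayed rectifier, had 240.4, 225.1 and 222.5 in the exposed pools, against 675.7, 686.3 and 528.9 in the control pools. It fell by 1.45 ± 0.14 on the log2 scale (SE, limma, adjusted p = 4.2e-04), and stood at -1.36 in the spike-adjusted fit (adjusted p = 0.079). Kcna5 fell by 0.55 (adjusted p = 0.033), and stood between -0.32 and -0.22 under the 3 other scalings with no call. Its call also ended with a replicate block (0.054) and without any 1 pool other than diabetes-exposed replicate 2 (adjusted p from 0.064 to 0.10), with a spike-adjusted value of -0.31 (0.76). Of 5 pacemaker and sodium channel genes 0 were called by limma, and Hcn2 and Hcn3, relatives of Hcn4, stood at 0.13 and -0.83 (adjusted p = 0.82 and 0.15). Of 5 further gap junction genes 0 were called, and Gjc1, connexin 45, stood at -0.12 (adjusted p = 0.35), at 0.18 after median centring and at -0.26 under quantile normalization, where it passed the threshold (adjusted p = 0.034), while its other tested probe set fell.

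**Figure D4:**
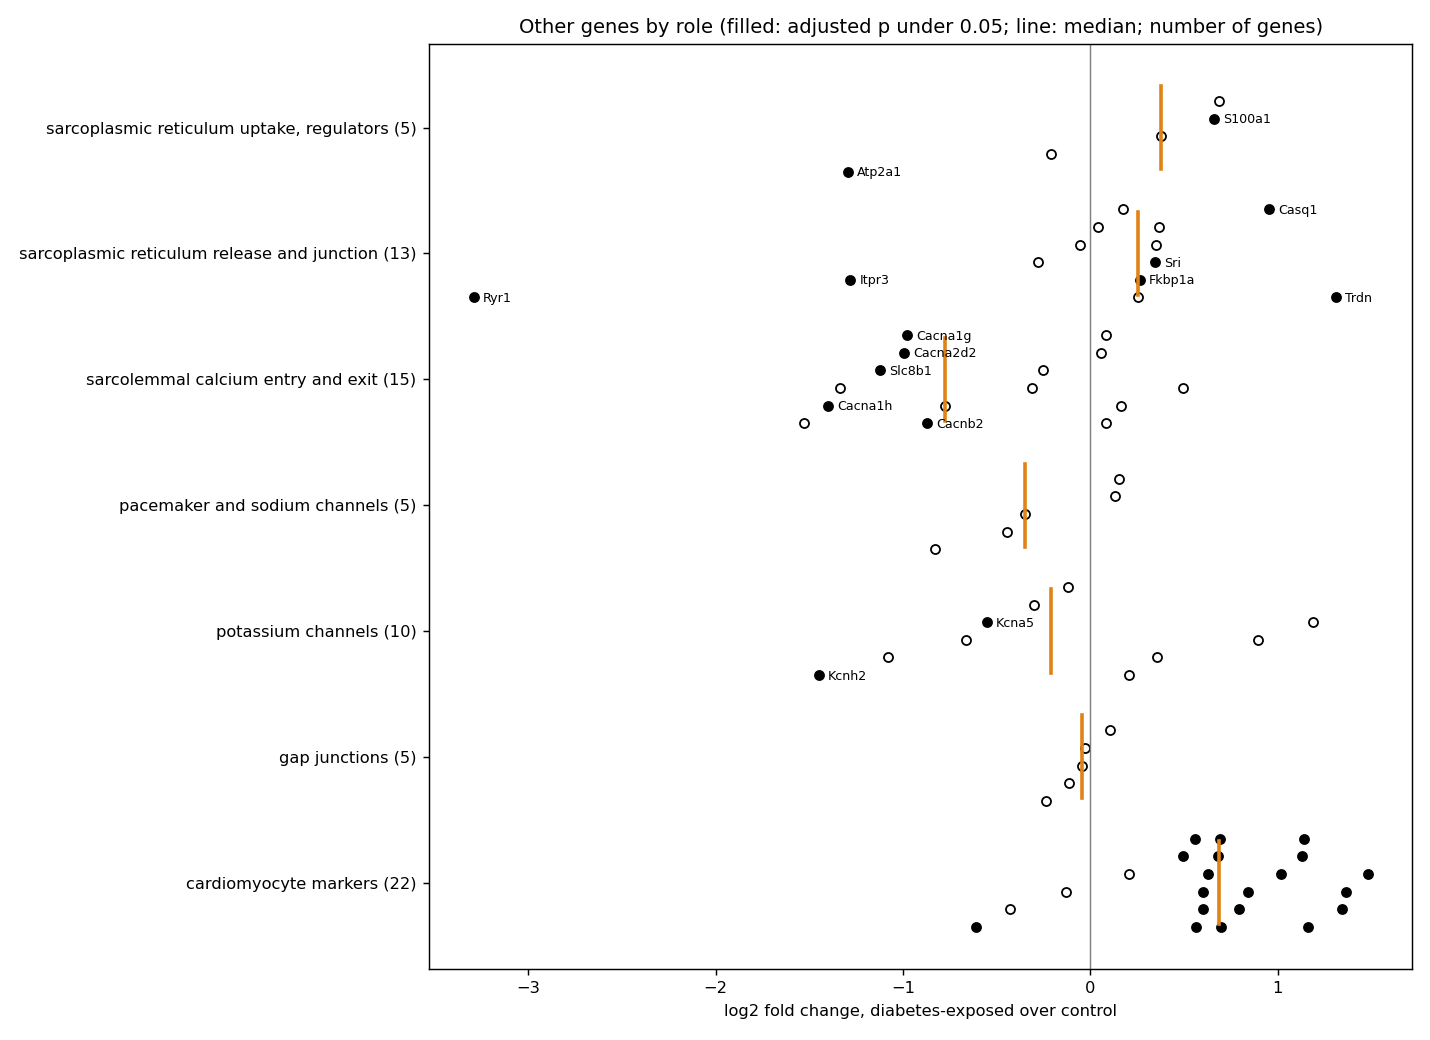
Log2 fold change (horizontal axis, diabetes-exposed over control) of 53 further calcium and ion channel genes by role and of 22 cardiomyocyte markers, 1 point per gene, filled where the adjusted p was under 0.05, with a line at each median. The median was -0.78 for the genes listed for calcium entry and exit and 0.69 for the cardiomyocyte markers, and -0.06 and 0.87 in the spike-adjusted fit, which is not drawn.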

How the data were processed

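Total RNA of embryo pools was labelled with biotin in a one-cycle assay and hybridised to Affymetrix arrays. The authors made the deposited intensity values, linear signals with 1 value per probe set, with GCOS and MAS5 under default parameters (versions: not given in the sources used here). All arrays had been scaled to a common mean, so a signal is relative to the rest of its pool. The median signal was 74.1 to 78.9 on diabetes-exposed and 82.5 to 103.3 on control arrays, and 0 signals were at or under 0. The number of arrays limits the precision. Each limma p-value sets the difference between groups against the spread between pools, estimated in part from all tested probe sets. With 1 array per pool, that spread holds differences between embryos and between arrays together. Labelling batches were not tested, since no source names them.

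Log2 signals were fitted with limma 3.58.1 in R 4.3.3 (lmFit, eBayes with trend, group as the only term). Left out beforehand were 64 control probe sets and the dimmest 33.3% by mean log2 signal. The platform's table gave 34958 probe sets 1 symbol, 932 several and 9211 none, and 34754 were found by gene number among RefSeq genes of GRCm38.p6, which changed 0 symbols. A gene with 1 value was read at its brightest tested probe set. The spike ratio averages 8 pairs of probe sets on the log2 scale. Alternatives were 3 other scalings, a pseudocount of 32, other filters, no trend, the spike ratio as a covariate, a replicate block, left-out pools, averaging the probe sets of a gene, and Welch's test. The fit was tested on simulated data, where it recovered 31 of 100 changes of 2-fold and 68 of 100 changes of 4-fold. Far fewer probe sets were changed there than were called here. A gene without a call may still have changed. Members, lists, tests and alternatives were chosen with earlier results of these data known. The genes named were the members, in each role group at most 2 risen and 2 fallen genes (lowest adjusted p), the 2 genes most like each member, and Myl7, Tnnt2, Actc1 and Nppa. Sri, Fkbp1a, Cacnb2, Cacna2d2, Slc8b1, Hcn2, Hcn3, Gjc1, Hand2, Afp, Ttr, Myf5 and Prl8a2 were named after their values were seen.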

Additional observations from a re-analysis of the deposited data

How the results depend on the processing

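Among member probe sets 5 rose and 6 fell. In the spike-adjusted fit 0 rose and 1 fell (Atp2a2 1427250_at). With Welch's test alone (on log2 signals, Benjamini-Hochberg) 0 rose and 2 fell (Atp2a2 1427250_at and 1416551_at). The authors combined that test with Cyber-T and a fold-change cut, and their full filter was not rerun here. Without diabetes-exposed replicates 1 and 3 together 2 rose, and without probe sets that may bind several transcripts 2 rose. Leaving out each pool in turn gave 4 to 6 risen and 5 to 6 fallen. Of the further genes 5 rose and 10 fell. After median centring 11 rose, in the spike-adjusted fit 0 rose and 0 fell, and with Welch's test alone 0 rose and 2 fell. With each pool left out 3 to 8 rose (8 without diabetes-exposed replicate 2, and 3 without control replicate 2 or 3 or diabetes-exposed replicate 1 or 3) and 5 to 12 fell (5 without control replicate 2, and 6 without control replicate 1 or diabetes-exposed replicate 1). The log2 difference of the control ratios then ran from 1.10 to 1.61 for the spikes, 1.58 to 2.44 for beta-actin and 0.59 to 1.05 for Gapdh. Signs turned for Atp2a2 1437797_at (0.12 under cyclic loess, 0.24 under median centring, 0.21 under quantile normalization, 0.094 without diabetes-exposed replicate 1) and Gja1 1415800_at (-0.17 under cyclic loess, -0.22 under quantile normalization, -0.058 in the spike-adjusted fit). In the spike-adjusted fit they also turned for Atp2a2 1443551_at (0.24), Pln 1423359_at (0.90), Casq2 1422529_s_at (-0.41), Slc8a1 1440201_at (-0.19) and 1420210_at (-0.37) and Cacna1c 1435730_at (1.10). Without diabetes-exposed replicates 1 and 3 they turned for Pln 1423359_at (0.070), Casq2 (-0.21) and Cacna1c 1435730_at (0.62, and from -1.03 to 0.44 with 1 pool left out, the highest without diabetes-exposed replicate 1). The mean of all probe sets of Gja1 gave -0.044. The cause was not tested. Replicate numbers were not treated as pairs in the main fit. Deviations of same-numbered pools correlated by 4.9e-05, 0.076 and 0.12, and those of differently numbered pools by -0.12 to 0.070. With 3 pools per group these values cannot decide whether the numbers pair the pools. With a replicate block 6 member probe sets rose and 6 fell, and of the further genes 5 rose and 10 fell. Dim probe sets limit the rest, since the lowest geometric mean signal tested was 26.7.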

Other observations

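The genes most like each member over the 6 pools were found among 13187 other genes by the smallest root mean square difference of centred log2 signals, each gene at its brightest probe set. For Atp2a2 these were Axin2, a feedback inhibitor of Wnt signalling, at 0.029 and Sox4, a transcription factor of progenitor cells, at 0.030, which fell by 0.84 and 0.82 on the log2 scale. For Gja1 they were Psma6, a proteasome subunit, at 0.020 and Psmc3ip at 0.021, which rose by 0.63 and 0.62. For Pln they were Cxcl17 and Otor, both less close at 0.13, of which Cxcl17 rose by 1.20 and Otor stood at 0.96 (limma, adjusted p = 0.072). For the members with no call they were Rab13 and Trappc6a (Ryr2), Car9 and Uox (Casq2), Trim25 and Map9 (Slc8a1), and Rtl5 and Prdm4 (Cacna1c), at 0.031 to 0.094. The pools share their groups, so a small difference includes the difference between groups.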
